A study of Mus musculus with 19 samples.

Results

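The smooth muscle contractile module is a list of 34 genes for the proteins that build, anchor and switch on the contractile apparatus of smooth muscle. It was read in mouse ovary on 19 Affymetrix mouse expression arrays. Each gene was represented by 1 probe set, taken from those annotated to that gene alone, with the highest mean log2 signal over the 19 arrays. The members were chosen with earlier results of these data known, so the list was not tested as a whole. The members are 34 of the 18193 genes with such a probe set, and all 34 were among the 12379 genes above the filter on low signals. The 8 control arrays (Ihh_Dhh_dhet) came from mice heterozygous for both hedgehog ligand genes, Ihh and Dhh. 4 arrays came from mice lacking Dhh (Dhh_KO), 4 from mice lacking Ihh (Ihh_KO) and 3 from mice lacking both (Dhh/Ihh DKO, here DKO). All mice were 2 months old, and the labels call the gene deletion ovary specific in every group, without naming the alleles. The Cre driver is not given in the sources used here, nor whether 1 array holds 1 animal or a pool, so p-values measure the spread between these arrays, which may in part be technical. The question behind the comparison is what the ovary loses when either ligand, or both together, are deleted.

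In smooth muscle, filaments of actin slide along filaments of myosin when the regulatory light chain of myosin is phosphorylated by myosin light chain kinase. Myosin phosphatase takes that phosphate off again. Tropomyosin, calponin, caldesmon and leiomodin sit on or shape the thin filament, and the filaments are tied into dense bodies and membrane plaques by crosslinkers, scaffold proteins and integrins. In the ovary, smooth muscle cells lie in the walls of blood vessels, in the outer theca around growing follicles and at the hilum. Indian and desert hedgehog are made by granulosa cells and act on the surrounding theca and stroma through the receptor Ptch1.

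The arrays fell into 2 sets by the ratio of 3′ to 5′ probe sets for BioC, a transcript added at hybridization: 0.987 to 1.06 on controls 1 to 4 and the DKO arrays, and 0.685 to 0.781 on controls 5 to 8 and the single knockouts. Each mutant group was therefore set against the controls of its own set. The same ratio for the mouse Gapdh transcript was 1.68 to 1.78 on the DKO arrays and 1.69 to 1.80 on their controls; it was 1.89 to 2.01 on controls 5 to 8, 2.08 to 2.79 on Dhh_KO and 1.90 to 2.37 on Ihh_KO. Dhh signal was 606 to 1371 on the controls, 5.14 to 25.4 on Dhh_KO and 3.85 to 14.2 on DKO. On Ihh_KO 1 to 3 it was 527 to 709, but on the array labelled Ihh_KO 4 it was 2.96, which goes against the label, so Ihh_KO results are given with and without that array. Ihh signal was 139 to 425 on the controls, 36.3 to 52.7 on DKO and 12.5 to 43.5 on Ihh_KO 1 to 3. It was 107.7 to 167.8 on Dhh_KO and 108.0 on the array labelled Ihh_KO 4. The defining smooth muscle markers (Acta2, Actg2, Myh11, Tagln, Cnn1, Des and Smtn) were above the filter signal of 69.4 on every control array, except Des in the second set, where the control signals were 84.0, 54.8, 87.4 and 128.

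In DKO ovaries 12 of the 34 members fell against controls 1 to 4 and none rose (limma, Benjamini-Hochberg adjusted p under 0.05 over all genes). Over all genes tested, 1.45% were called lower and 1.57% higher, 3.02% in either direction. Both smooth muscle actins fell, as did the smooth muscle myosin heavy chain and regulatory light chain, tropomyosin 2, leiomodin 1, calponin 2, the myosin kinase, a phosphatase subunit and the phosphatase inhibitor, with the scaffold protein Csrp1 and the integrin Itga8. The other classes gave no call: neither intermediate filament protein, neither of the channel and pump regulators and neither transcription factor was called. The log2 difference was below 0 in 28 of 34 members (45.9% of all genes), with a median of -0.53 against 0.022 over all genes. The level was at least 2-fold lower in 8 members, Cnn1 and Synpo2 among them without passing the test, against 1.62% of all genes. At an unadjusted p under 0.05 there were 17 members, and 1993 of the 12379 genes. Differences and folds throughout are of log2(signal + 7.02), which understates the change of weak signals. In whole ovary, fewer smooth muscle cells and less RNA per cell cannot be told apart.

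The 12 calls rest on 3 DKO arrays that differed from each other, and on a spread estimated over all 19 arrays. Without DKO 3 the number of calls was 6. The shares of all genes called are not given for this fit or the next 2, so these counts do not speak of the members alone. With the spread estimated from the 7 arrays of the first set alone, 0 members were called by limma and 15 had an unadjusted p under 0.05; the differences were the same and the adjusted p of the 12 lay between 0.0518 and 0.133. With the label's replicate number as a block within that set, 2 members were called (Cnn2 lower and Fhl1 higher), 18 had an unadjusted p under 0.05 and the adjusted p of the 12 lay between 0.0307 and 0.111. DKO 1 and DKO 3 carried raised sums of oviduct and adipocyte markers. Without both of them the group is 1 array, assumed to vary like the other groups; 11 members and 0.614% of all genes were then called, in a fit added after the values were seen, which says nothing about stability. All 12 stood below every control of their set on each DKO array, as did 6.07% of all genes tested. The 12 were called on these same arrays, so this is no separate support.

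**Figure D1:**
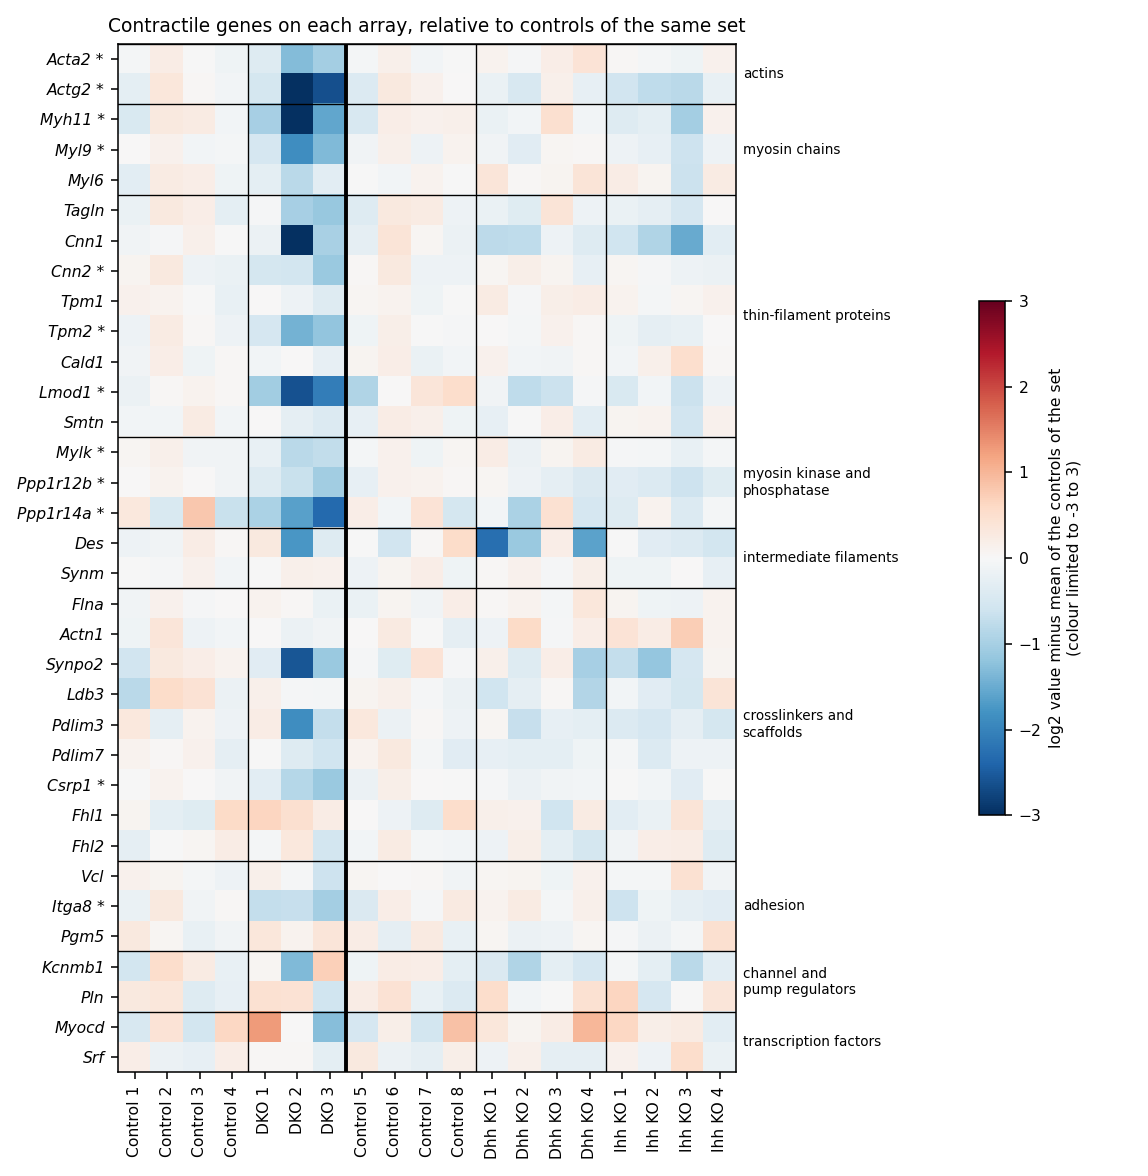
Log2 difference of each member from the mean of the controls of its own set, with 1 line per gene, grouped by class of protein, and 1 column per array; the colour scale is limited to 3 in either direction, a thick line separates the hybridization sets, and an asterisk marks an adjusted p under 0.05 in DKO. The steepest falls are on DKO 2 and DKO 3, in the actins, myosin chains and some thin-filament proteins, while intermediate filament proteins, most scaffold proteins and both transcription factors carry no asterisk.

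Serum response factor, with its partner myocardin, is known to bind the CArG box, a motif of 10 bases with an A/T core, in promoters of many contractile genes. Promoters are shown because contractile genes as a family are known for this element, whether or not they fell. The letters come from RefSeq (GRCm38.p6) and cover the 250 bases before the start site. They are printed 5′ to 3′ on the strand of the gene. Capitals mark an exact CArG box, or in Acta2 a match with 1 mismatch in the A/T core. Of the members, 30 of 34 had an entry, and Actg2, Myh11, Tagln and Myocd had none. The promoter of Acta2 lies at chr19:34255374-34255623 on the minus strand, that of Myl9 at chr2:156775214-156775463 on the plus strand, that of Cnn2 at chr10:79988350-79988599 on the plus strand and that of Srf at chr17:46556163-46556412 on the minus strand.
Acta2: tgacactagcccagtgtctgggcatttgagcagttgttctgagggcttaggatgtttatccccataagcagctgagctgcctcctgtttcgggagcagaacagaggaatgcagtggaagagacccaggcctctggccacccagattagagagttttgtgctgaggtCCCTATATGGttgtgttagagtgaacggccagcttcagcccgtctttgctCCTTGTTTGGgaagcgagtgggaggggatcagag
Myl9: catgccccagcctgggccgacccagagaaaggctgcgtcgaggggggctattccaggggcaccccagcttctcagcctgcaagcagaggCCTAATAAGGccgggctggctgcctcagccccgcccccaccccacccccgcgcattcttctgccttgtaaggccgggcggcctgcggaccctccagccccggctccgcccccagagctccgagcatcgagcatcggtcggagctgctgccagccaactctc
Cnn2: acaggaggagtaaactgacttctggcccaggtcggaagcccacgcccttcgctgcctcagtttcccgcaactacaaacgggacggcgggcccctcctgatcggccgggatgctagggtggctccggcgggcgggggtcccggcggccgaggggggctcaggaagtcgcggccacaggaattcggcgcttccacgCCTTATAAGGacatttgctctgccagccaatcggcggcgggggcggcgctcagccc
Srf: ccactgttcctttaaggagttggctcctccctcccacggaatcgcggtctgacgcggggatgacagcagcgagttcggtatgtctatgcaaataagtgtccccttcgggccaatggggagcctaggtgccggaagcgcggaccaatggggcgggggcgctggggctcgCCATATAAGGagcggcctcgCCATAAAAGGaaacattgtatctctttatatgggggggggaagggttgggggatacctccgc
The first base of the matches lay 84 and 34 bases before the start in Acta2, 161 in Myl9, 56 in Cnn2, and 82 and 62 in Srf. Searched on both strands, an exact CArG box stood in 8 of the 30 members with an entry (26.7%), and in 1.62% of all 27025 genes of the table; by promoter it was 10 of 37 for the members and 1.47% of all 32851 of the same length. Of the 10 members with an entry that fell in DKO, 2 held the box (Myl9 and Cnn2). Of the 20 with an entry that were not called, 6 held it (Myl6, Ldb3, Fhl1, Fhl2, Vcl and Srf). Allowing 1 mismatch in the core, 11 of 30 members (36.7%) held a match, against 9.78% of all genes and 8.59% of all promoters. These were 3 of the 10 that fell, all printed above, and 8 of the 20 that were not called. A match here is only a description of the letters in this window.

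Both smooth muscle actins, the monomers of the thin filament, fell in DKO ovaries. The enteric gamma actin Actg2 gave signals of 969, 109 and 219 on DKO 1 to 3, and 1144, 1767, 1429 and 1321 on controls 1 to 4. The groups did not overlap, but DKO 1 lay just under the lowest control while DKO 2 was the lowest by far. Its mean went from 1415 ± 262 (SD, n = 4) to 432 ± 468 (SD, n = 3), a log2 difference of -2.25 ± 0.44 (SE, 95% interval -3.18 to -1.33, limma adjusted p = 0.0081), or 4.77-fold lower; it was the steepest fall of the 34 members. Without DKO 3 its adjusted p was 0.0573. The vascular alpha actin Acta2, found in all smooth muscle, was 6022, 3229 and 3921 on the DKO arrays against 7571, 9186, 7878 and 7205 on controls, again without overlap and with DKO 1 the highest of the 3. The Acta2 difference was -0.90 ± 0.15 (95% interval -1.22 to -0.58, adjusted p = 0.0034), a fold of 1.87. Its probe set is of the kind that can match related transcripts (suffix _s_at).

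Of the 3 myosin chains, the heavy chain and the regulatory light chain fell and the essential light chain did not pass the test. Myh11, the motor of smooth muscle, was 1221, 236 and 828 on DKO 1 to 3 and 1784, 3018, 2881 and 2299 on controls 1 to 4. Every DKO array was below every control, DKO 2 most. The log2 difference was -1.96 ± 0.39 (95% interval -2.77 to -1.15, adjusted p = 0.0089). Myl9, the light chain that the kinase phosphorylates, was 3031, 1177 and 1713 against 4315, 4706, 4092 and 4154. The control values were close together (mean 4317 ± 276, SD, n = 4) and the DKO mean was 1974 ± 954 (SD, n = 3), 2.35-fold lower, with a log2 difference of -1.23 ± 0.21 (adjusted p = 0.0034). Myl6, the essential light chain that many cell types also use, was 354, 246 and 352 against 349.9, 519, 506 and 400.0. Its DKO 1 and DKO 3 arrays reached the level of the lowest control, and the difference was -0.48 ± 0.20 (adjusted p = 0.245).

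Among the 8 thin-filament proteins, 3 fell (Lmod1, Tpm2 and Cnn2), and the other 5 had differences below 0 that did not pass the test. Leiomodin 1, which nucleates actin filaments in smooth muscle, was 149, 45.3 and 69.5 on DKO 1 to 3 against 277, 322, 337 and 320.2 on controls 1 to 4. Even the highest DKO array was well under the lowest control. The log2 difference was -1.91 ± 0.34 (95% interval -2.62 to -1.20, adjusted p = 0.0048), or 3.75-fold lower. The beta tropomyosin Tpm2 was 3702, 1962 and 2281 against 4731, 6228, 5385 and 4680.4, without overlap, a difference of -1.03 ± 0.16 (adjusted p = 0.0016). This was the smallest adjusted p of the module, and 3 of the 4 Tpm2 probe sets were called lower, the other being the weakest of them (-0.75, adjusted p = 0.3). The alpha tropomyosin Tpm1, which many cell types use, was 6039, 5404 and 4563 against 6509.6, 6406, 5955 and 5169, with overlapping groups and a difference of -0.18 ± 0.10 (adjusted p = 0.424).

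Calponins bind actin and slow the myosin motor. Cnn2, the form found in many cell types, was 1497, 1465 and 989 on DKO 1 to 3 against 2254, 2623, 1929.8 and 1855 on controls 1 to 4, below every control on each array. Its difference of -0.73 ± 0.16 passed the test (adjusted p = 0.0149), but not without DKO 3 (adjusted p = 0.103) or with all 8 controls as 1 group (adjusted p = 0.0678). Cnn1, the form of differentiated smooth muscle, was 435, 14.4 and 248 against 461, 480.5, 549 and 493. Cnn1 too was under all 4 controls on each DKO array, but DKO 2 was almost without signal and DKO 1 close to the controls. With that spread the difference of -1.90 ± 0.63 (95% interval -3.23 to -0.57) did not pass the test (adjusted p = 0.124); without DKO 1 it did (-2.76, adjusted p = 0.0146). Transgelin (Tagln), an actin-bundling relative of calponin, was 2909.7, 1503 and 1369 against 2610.2, 3687, 3429 and 2453. DKO 1 lay among the controls and the other 2 arrays lay under them; the difference was -0.72 ± 0.24 (adjusted p = 0.127), and without DKO 1 it was -1.06 (adjusted p = 0.0128). The caldesmon gene Cald1 had the smallest change of the class, 5126, 5509.7 and 4586 against 5025, 6256, 4986 and 5569, a difference of -0.10 ± 0.13 (adjusted p = 0.755), and its _s_at probe set can match related transcripts. Smoothelin (Smtn) was 508, 418 and 377 against 479, 473, 601 and 478, a difference of -0.23 ± 0.19 (adjusted p = 0.604).

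**Figure D2:**
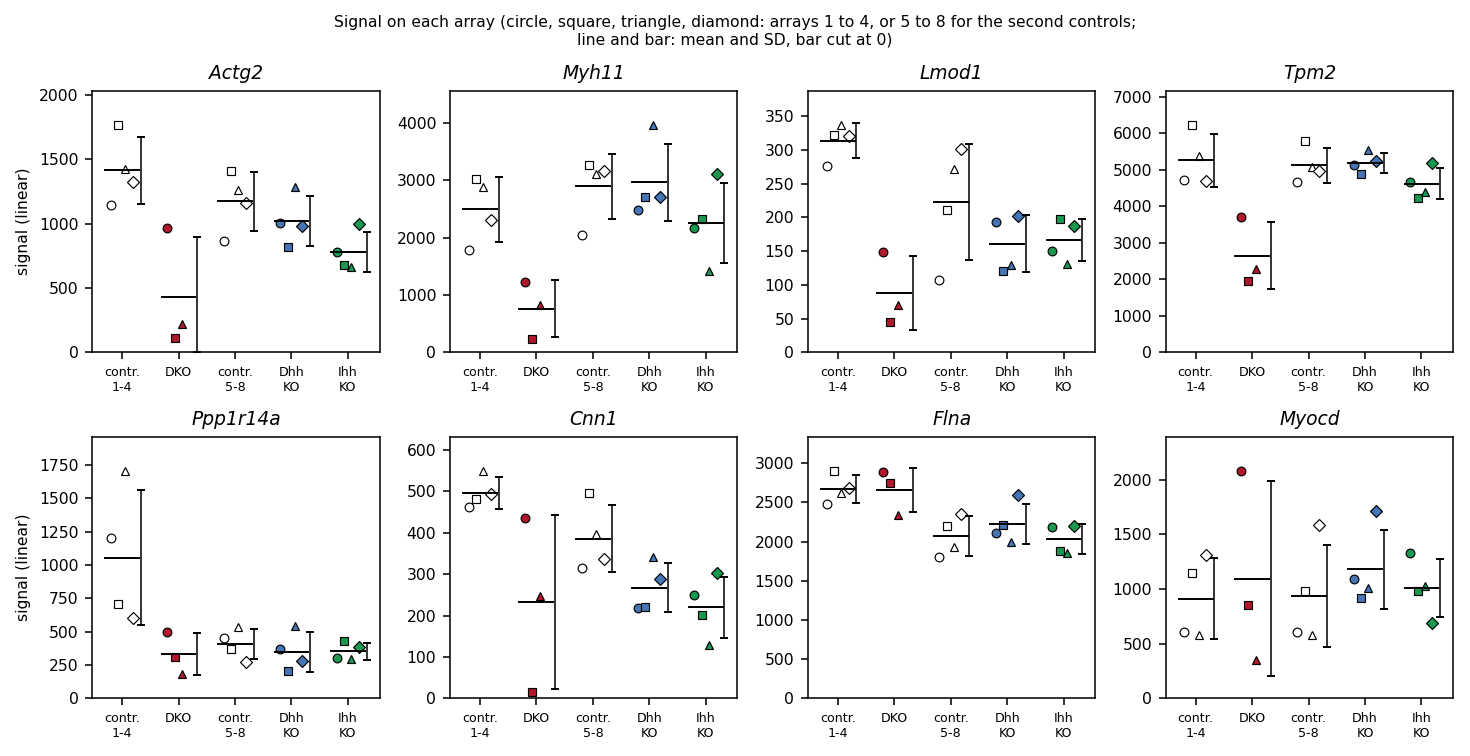
Signal (linear MAS5 units, vertical axis) of 8 members on each of the 19 arrays, by group along the horizontal axis, with 1 point per array and the group mean and SD as a bar that is cut at 0. In Actg2, Myh11, Lmod1, Tpm2 and Ppp1r14a all 3 DKO arrays lie below controls 1 to 4; Cnn1 has 1 DKO array at 14.4, Flna overlaps its controls in DKO, and Myocd spans 351 to 2079.7 on the DKO arrays.

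All 3 members of the switch on myosin fell: the kinase Mylk, the regulatory phosphatase subunit Ppp1r12b and the phosphatase inhibitor Ppp1r14a (CPI-17). Ppp1r14a was 496, 310.5 and 186 on DKO 1 to 3 and 1204, 709, 1703 and 606 on controls 1 to 4. The controls themselves spread widely, and the lowest of them was still above every DKO array. The difference of -1.64 ± 0.37 (95% interval -2.42 to -0.85, adjusted p = 0.0212) was the call that held in the fewest alternatives, 27 of 35. It did not pass without control 1 (adjusted p = 0.0627), control 3 (0.0781), DKO 2 (0.0661) or DKO 3 (0.132), or with all 8 controls as 1 group (0.174). Mylk was 6428, 4233 and 4469 against 7782, 8288, 6894 and 6989.6, a smaller difference of -0.59 ± 0.13 (adjusted p = 0.0143), or 1.51-fold, and all 3 of its probe sets were called lower. Without DKO 2 its adjusted p was 0.0876 and without DKO 3 0.0881. Ppp1r12b was 789.8, 646 and 494 against 1031, 1111, 1029 and 949, a difference of -0.70 ± 0.15 (adjusted p = 0.0126), with no overlap. Without DKO 3 its adjusted p was 0.0888, and with each array centred on its median 0.0524.

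Neither intermediate filament protein passed the test. Desmin (Des), the muscle form, was 209.5, 45.9 and 128 on DKO 1 to 3 and 152, 158, 198 and 173 on controls 1 to 4. DKO 1 exceeded every control and the other 2 arrays were under them all, so the groups overlapped, with a difference of -0.61 ± 0.47 (adjusted p = 0.577). Synemin (Synm), which joins desmin filaments, was 570.3, 629.6 and 621 against 564, 553, 627 and 541, with overlapping groups, a difference of 0.087 ± 0.10 and a 95% interval of -0.13 to 0.30.

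Of the 9 crosslinkers and LIM or PDZ scaffold proteins, 1 fell. Csrp1, a LIM protein that binds the actinin of dense bodies, was 2936, 2027 and 1679 on DKO 1 to 3 and 3626, 3962, 3711 and 3389 on controls 1 to 4, each DKO array below each control. Its difference was -0.77 ± 0.14 (95% interval -1.05 to -0.48, adjusted p = 0.005), a fold of 1.70. Synpo2, an actin-binding protein of the Z-disc and dense body, had the steepest difference of the class but did not pass: 288, 55.3 and 164 against 240.3, 446, 416 and 391, -1.34 ± 0.41 (adjusted p = 0.0939). DKO 1 lay among its controls, and without that array the Synpo2 difference was -1.84 (adjusted p = 0.0181). Pdlim3, a PDZ and LIM protein that binds actinin, was 281, 61.0 and 143 against 299, 198, 256 and 215, with DKO 1 again among the controls, -0.78 ± 0.32 (adjusted p = 0.22), and -1.28 without DKO 1 (adjusted p = 0.0118). Flna (filamin A), a large crosslinker of many cells, was 2887, 2746 and 2337 against 2483, 2899, 2614 and 2683, with a difference of -0.011 ± 0.11 and a 95% interval of -0.25 to 0.22. Actn1 (alpha-actinin) differed by -0.094 ± 0.18, Ldb3 by 0.016 ± 0.30, Pdlim7 by -0.33 ± 0.16 and Fhl2 by -0.10 ± 0.20, with adjusted p of 0.318 or more. Fhl1, a LIM protein of muscle that many other cell types make too, had the highest difference of the module, 0.45 ± 0.25 (adjusted p = 0.412), at 3375, 3004 and 2501 against 2297, 1756, 1659 and 3210.3, and its range on DKO overlapped that of the controls.

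In the adhesion class, 1 of 3 members fell. Itga8, the integrin chain through which smooth muscle cells hold fibronectin and nephronectin, was 429, 437 and 342 on DKO 1 to 3 and 613, 861, 652 and 719 on controls 1 to 4. All 3 DKO arrays were alike here, DKO 1 included, and lay under every control. The difference was -0.81 ± 0.16 (95% interval -1.15 to -0.46, adjusted p = 0.0106), with adjusted p = 0.074 without DKO 3 and 0.0604 with each array centred on its median. A second, weaker Itga8 probe set gave -0.42 (adjusted p = 0.31). Vinculin (Vcl), which links integrins to actin in many cells, was 3023, 2646 and 1767 against 2972, 2883, 2634 and 2463, a difference of -0.17 ± 0.15 (adjusted p = 0.628), with DKO 3 alone under the controls. Pgm5 (aciculin), a partner of dystrophin and vinculin at the membrane, was 367, 315 and 374 against 356, 304, 247 and 268, a difference of 0.27 ± 0.18 (adjusted p = 0.514).

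Neither regulator of membrane channels and calcium stores was called. Kcnmb1, the beta subunit of the calcium-activated potassium channel of smooth muscle, was 107, 37.1 and 173 on DKO 1 to 3 and 67.4, 151, 123 and 87.2 on controls 1 to 4, DKO holding both the lowest and the highest value. Phospholamban (Pln), which restrains the calcium pump of the reticulum, was 258, 254 and 121 against 228, 239, 141 and 155, also with overlap. Their differences were -0.18 ± 0.36 and 0.10 ± 0.31 (adjusted p = 0.862 and 0.918). Of the transcription factors, Srf, whose promoter with its CArG boxes is printed above, binds that element, and Myocd is its muscle-specific partner. Srf was 1519, 1519 and 1197 against 1706, 1308, 1248 and 1694, a difference of -0.071 ± 0.18 with a 95% interval of -0.45 to 0.31. Myocd was 2079.7, 856 and 351 against 607, 1148, 583 and 1314, so that DKO 1 stood above all controls and DKO 3 below them. Its difference of 0.0029 ± 0.47 has a wide 95% interval, -0.98 to 0.98.

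**Figure D3:**
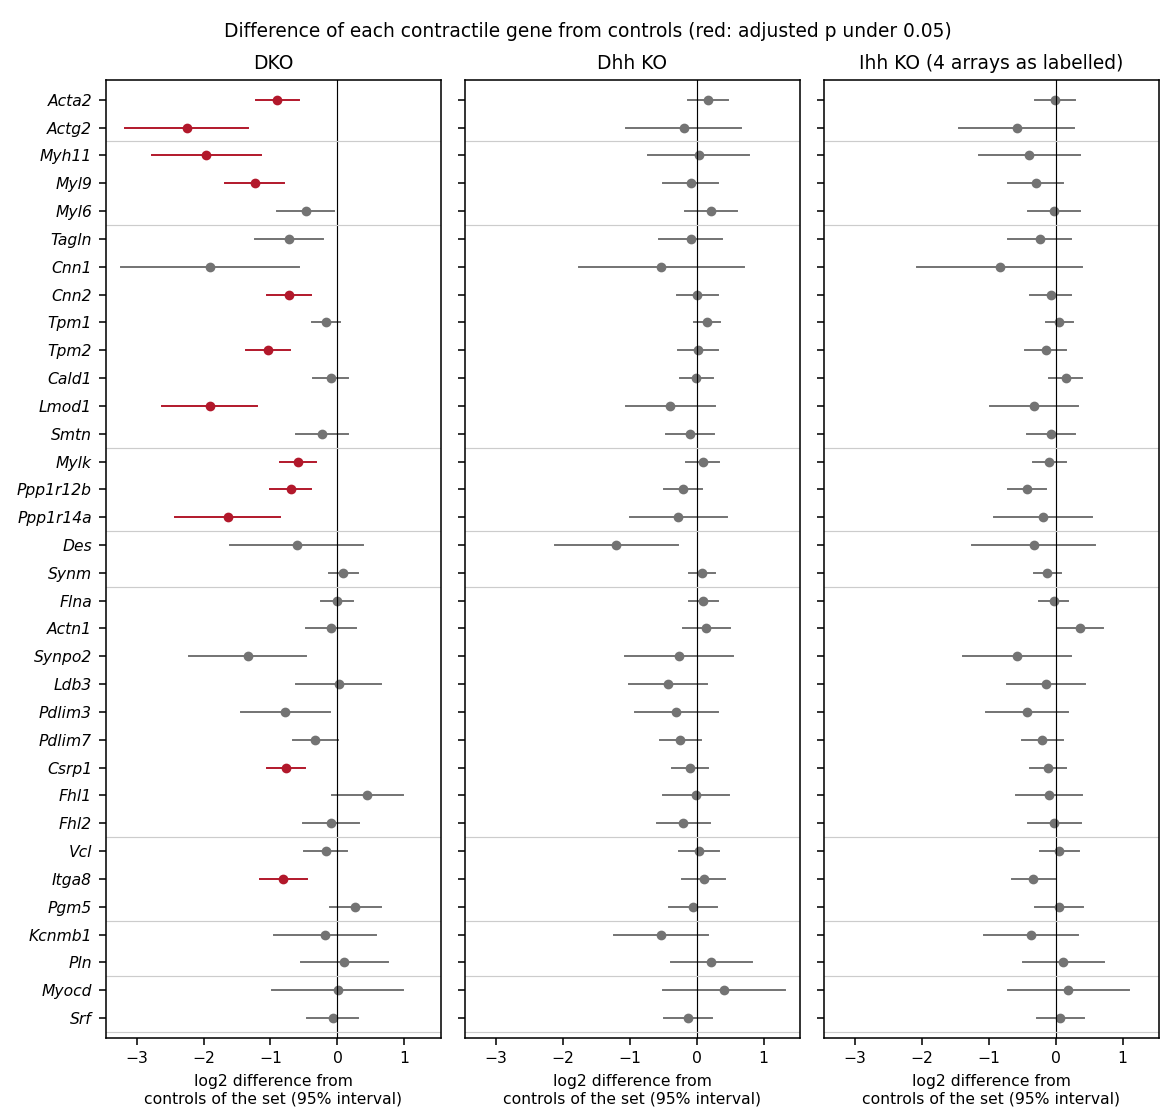
Log2 difference of each of the 34 members, with its 95% interval from limma, in DKO against controls 1 to 4 and in Dhh_KO and Ihh_KO against controls 5 to 8, with genes ordered by class; red marks an adjusted p under 0.05. The 12 red points are all in DKO, from -2.25 (Actg2) to -0.59 (Mylk), and no point is red in either single knockout.

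The list also divides by breadth of expression, a split made from general knowledge with earlier results in view. Of the 23 members known mainly from muscle, 11 fell and the median log2 difference was -0.77; of the 11 that many cell types make, 1 fell (Cnn2) and the median was -0.10. The difference between these groups of members was not tested. On DKO 1, DKO 2 and DKO 3 the muscle-enriched members had medians of -0.22, -1.29 and -1.03 relative to the mean of their controls, while the widely expressed members had medians of 0.0015, -0.045 and -0.31. By class, the actins had medians of -0.46, -2.45 and -1.83 on the same arrays, the myosin chains -0.51, -1.87 and -1.33, the thin-filament proteins -0.13, -0.77 and -1.04 and the kinase and phosphatase members -0.38, -0.82 and -1.05. The scaffold class had medians of 0.0015, -0.18 and -0.56, and the transcription factors 0.66, 0.022 and -0.78. The 12 called members stood at a median of 69.7% of the control mean on DKO 1 (47.0% to 85.8%), 38.9% on DKO 2 (7.70% to 67.6%) and 44.5% on DKO 3 (15.5% to 59.7%). DKO 1 was the highest of the 3 in 11 of these 12 members; DKO 2 was the lowest in 7 and DKO 3 in 5. Counting without a model, all DKO arrays lay below all of controls 1 to 4 in 13 members, the 12 called and Cnn1, against 6.07% of all genes; they lay above in 0 members, against 7.08% of all genes.

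**Figure D4:**
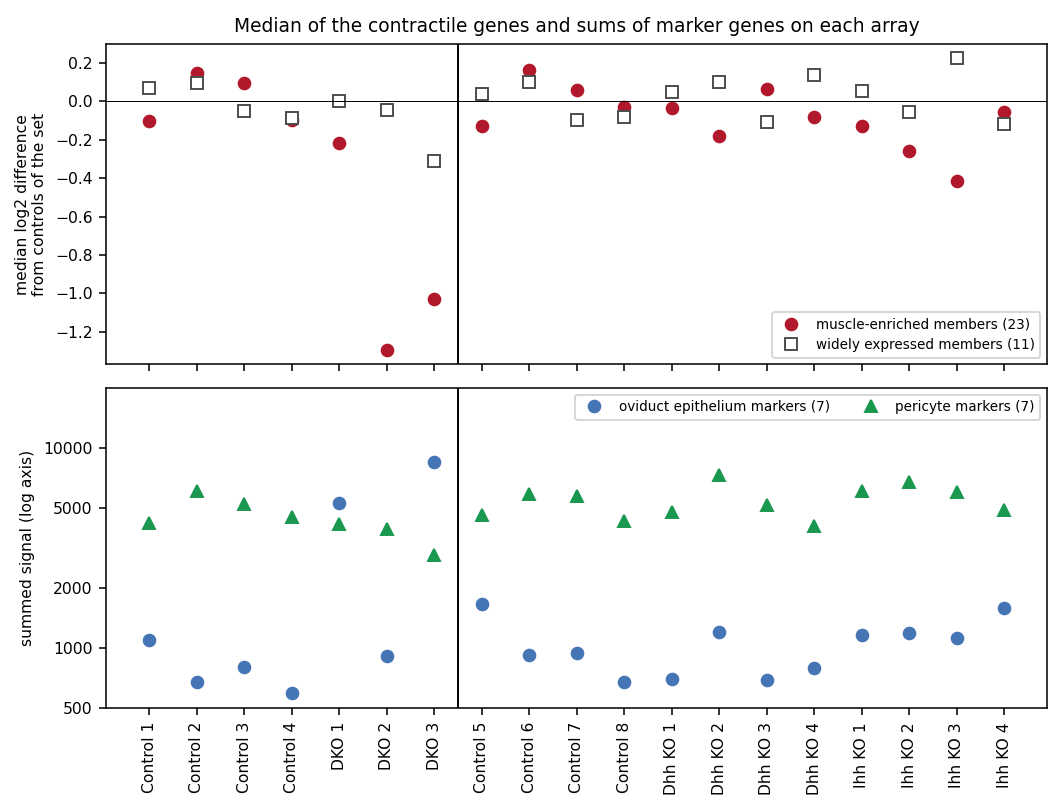
For each of the 19 arrays, the median log2 difference of the 23 muscle-enriched and the 11 widely expressed members from the mean of the controls of the same set (linear axis), and the summed signal of the oviduct epithelium and pericyte marker lists (log axis). The muscle-enriched medians are -0.22, -1.29 and -1.03 on DKO 1 to 3, and the oviduct sum is 5319 on DKO 1 and 8555 on DKO 3 but 913 on DKO 2.

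Other probe sets of the same genes were read as a check on the choice of 1 per gene. The members had 72 single-gene probe sets, of which 59 were above the filter, 45 of these were lower in DKO, 17 were called lower and 0 higher, with p adjusted over all probe sets. These counts include the probe set already chosen for each gene, so they are not independent of the calls above. The shares over all probe sets are not given here. For 21 genes there was more than 1. Both Ppp1r12b probe sets above the filter were called lower (-0.70 and -0.85), as were all 3 of Mylk (-0.59, -0.86 and -0.94), and the second Csrp1 probe set had a difference of -0.66 (adjusted p = 0.0772). Synpo2 was the gene whose probe sets disagreed most in sign: its weaker ones gave 0.15 and 0.51, the one with the highest signal -1.34. For Pdlim7 they gave 0.27 and -0.33.

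Markers of other cell types differed on the DKO arrays as well. The summed signal of 7 oviduct epithelium markers was 5319, 913 and 8555 on DKO 1 to 3, against 598 to 1097 on controls 1 to 4; 1 of the 4 tested was called higher (Wfdc2), and the oviductal glycoprotein Ovgp1 was 3729.7, 53.6 and 4679 against 26.0 to 409. The sum of 3 adipocyte markers was 6083, 618 and 8429 against 585 to 2475. On DKO 2 both sums lay within the range of controls 1 to 4, but 3 of the 7 oviduct markers did not: Wfdc2 was 139 against at most 82.5, Krt7 449 against at most 292 and Msx1 81.8 against at most 48.4. Pericytes share many contractile genes with smooth muscle: their 7 markers summed to 2924 to 4177 against 4222 to 6133, 0 of 7 were called and 5 were below 0, with a median of -0.29. The 6 endothelial markers summed to 2032 to 2982 against 3064 to 4157 (1 called lower, median -0.36) and the 6 stromal fibroblast markers to 15546 to 24037 against 20571 to 31886 (1 lower, median -0.52). The 5 theca markers (Cyp17a1, Cyp11a1, Star, Hsd3b1 and Ptch1) summed to 17067 to 22596 against 33421 to 42687 (3 lower, median -1.58). Ptch1 in this list is itself a hedgehog target gene, at 2105 to 2381 on DKO against 3763 to 4048. Whether its fall reflects theca cells was not tested. The 5 surface epithelium markers summed to 5255 to 7978 against 2880.1 to 4719.9 (1 higher). The 4 granulosa markers summed to 12240 to 15222 against 12163 to 14308 (0 called). The 6 oocyte markers summed to 9298 to 15263 against 6244 to 12483, with 0 called, 0 below 0 and a median of 0.40. Skeletal muscle markers were low everywhere, summing to 304 to 335 on DKO and 341 to 412 on controls 1 to 4, and the skeletal actin Acta1 was at 1.43 to 18.9 on the 19 arrays. In Dhh_KO and Ihh_KO no marker of these lists was called over the 19 arrays. Without the array labelled Ihh_KO 4, 1 marker of the theca list, which holds Ptch1, was called lower in Ihh_KO. The part of these cell types in the fall of the module was not tested.

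Genes outside the module that take part in contraction or replace its proteins in other cells were read from a list of 44, of which 37 were tested. Of these 37 genes, 2 fell in the DKO group and 0 rose, against 1.45% and 1.57% of all genes tested. In DKO 27 of them were below 0 (45.9% of all genes), and the median was -0.11 against 0.022. Both that fell are receptors. The oxytocin receptor Oxtr was at 549.7, 209 and 153 on DKO 1 to 3 against 948, 1236, 2544 and 731 on controls 1 to 4. The endothelin receptor Ednrb was at 411, 143 and 135 against 679, 729, 629.5 and 1079. Neither overlapped its controls, with differences of -2.19 ± 0.55 (adjusted p = 0.0367) and -1.89 ± 0.37 (adjusted p = 0.0086). The non-muscle relatives of the fallen proteins were not called: the cytoplasmic actins Actb (-0.18 ± 0.09) and Actg1 (-0.081 ± 0.07), the heavy chains Myh9 (-0.15 ± 0.09) and Myh10 (0.36 ± 0.12), the light chains Myl12a (0.012 ± 0.09) and Myl12b (-0.12 ± 0.08), and the tropomyosins Tpm3 (-0.13 ± 0.13) and Tpm4 (-0.29 ± 0.18). Mrtfa and Mrtfb, which like Myocd bind Srf, had differences of -0.11 ± 0.14 and 0.14 ± 0.14, also not called. None of the 37 was called in Dhh_KO or Ihh_KO against controls 5 to 8, where the medians were 0.029 and 0.018. There limma gave 1 and 7 of them an unadjusted p under 0.05, against 1252 and 1728 of the 12379 genes tested.

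In Dhh_KO ovaries no member was called, as no gene was (0% of genes); limma gave 1 member, and 1252 of all genes, an unadjusted p under 0.05. The median log2 difference of the members from controls 5 to 8 was -0.069 against -0.031 over all genes, and 20 of 34 were below 0 (56.3% of all genes). The member with the unadjusted p under 0.05 was Des, at 12.1, 35.3, 98.3 and 23.3 on Dhh_KO 1 to 4 and 84.0, 54.8, 87.4 and 128 on controls 5 to 8. These signals lie around the filter level and overlap, with a difference of -1.20 ± 0.44 (95% interval -2.12 to -0.28, adjusted p = 0.39). Of the genes that fell in DKO, Actg2 was 1002, 821, 1286 and 979.8 on Dhh_KO against 863, 1407, 1264 and 1160.3, a difference of -0.19 ± 0.41 (95% interval -1.05 to 0.66). Acta2 was 6434, 5887, 6884 and 8021 against 5763, 6718, 5651 and 5938, with overlapping ranges and a difference of 0.17 ± 0.14. Tpm2 was 5119, 4885, 5542 and 5242 against 4669.6, 5778, 5079.6 and 4960.1, a difference of 0.024 ± 0.14 with a 95% interval of -0.28 to 0.33. Myh11 was 2479, 2707, 3963 and 2707 against 2052, 3258, 3115 and 3163, a difference of 0.032 ± 0.36. Its ranges overlapped, with the highest value of both groups on Dhh_KO 3. Myl9 differed by -0.088 ± 0.19, Lmod1 by -0.39 ± 0.31, Mylk by 0.092 ± 0.12, Ppp1r14a by -0.27 ± 0.35, Csrp1 by -0.10 ± 0.13 and Itga8 by 0.11 ± 0.15. Cnn1 was 219, 219, 342 and 287 against 314, 496, 397 and 337, with 3 of 4 arrays below all controls and a difference of -0.52 ± 0.59 (95% interval -1.76 to 0.71). No member had all 4 Dhh_KO arrays below, or all above, all 4 controls, against 3.27% and 2.19% of all genes.

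In Ihh_KO ovaries, too, no member was called, with 2 genes (0.0162%) called in all; 3 members, and 1728 genes, had an unadjusted p under 0.05 in limma. Without the array labelled Ihh_KO 4 again no member was called, with 0.388% of genes called, and 2 members and 1980 genes at an unadjusted p under 0.05. The median of the members was -0.12 against controls 5 to 8 (-0.14 without array 4), against -0.021 over all genes, and 26 of 34 were below 0 (54% of all genes). The 3 members were Ppp1r12b, Actn1 and Itga8. Ppp1r12b was 803, 764, 660.0 and 789 on Ihh_KO 1 to 4 and 852, 1113, 1089 and 1036 on controls 5 to 8, with no overlap, a difference of -0.43 ± 0.13 (adjusted p = 0.185, and 0.159 without array 4). Actn1 was 1455, 1269, 1823 and 1170.0 against 1107, 1312, 1082 and 903, a difference of 0.37 ± 0.17 (adjusted p = 0.335), and Itga8 was 597, 848, 769.9 and 730.0 against 679.9, 1056, 903 and 1113, a difference of -0.33 ± 0.15 (adjusted p = 0.342). Both overlapped their controls, and without array 4 the differences were 0.45 ± 0.17 and -0.33 ± 0.17 (adjusted p = 0.213 and 0.35). In 3 members all Ihh_KO arrays lay below all 4 controls (Cnn1, Ppp1r12b and Pdlim3), against 3.99% of all genes, and in 0 members above, against 2.29%. Without array 4, 5 members lay below (Actg2 and Synpo2 in addition), against 7.63% of all genes, and 0 above, against 5.1%. Cnn1 was 249.9, 201, 128 and 302 on Ihh_KO against 314, 496, 397 and 337, a difference of -0.83 ± 0.59 (95% interval -2.07 to 0.40; -1.003 ± 0.64 without array 4), and Actg2 was 778, 682, 661 and 997 against 863, 1407, 1264 and 1160.3, a difference of -0.58 ± 0.41 (95% interval -1.44 to 0.27; -0.71 ± 0.44 without array 4). Myh11 was 2171, 2325, 1409.5 and 3103 against 2052, 3258, 3115 and 3163, a difference of -0.39 ± 0.36 (-0.57 ± 0.38 without array 4), and Tpm2 was 4673, 4239, 4393 and 5185 against 4669.6, 5778, 5079.6 and 4960.1, a difference of -0.15 ± 0.14 (-0.20 ± 0.16). In both genes Ihh_KO arrays lay within the range of the controls as well as under it. Ihh_KO 3 held the lowest signal of its group in Myh11, Myl9, Cnn1 and Mylk, and its muscle-enriched median was -0.42.

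Whether the fall in DKO was larger than that in a single knockout was tested as a difference of differences, each mutant group against the controls of its own set. Against Dhh_KO, 2 members passed, both lower in DKO: Acta2 by -1.07 ± 0.21 (95% interval -1.51 to -0.63, limma adjusted p = 0.0276) and Tpm2 by -1.06 ± 0.21 (95% interval -1.50 to -0.61, adjusted p = 0.0293), where 0.606% of all genes passed in either direction and 0.25% lower. Without the array labelled Ihh_KO 4 both passed again, with 0.776% of genes called. Neither passed (0 calls) without any 1 of controls 2, 3, 5 and 7, Dhh_KO 1 and 4, DKO 2 and DKO 3. Without Dhh_KO 3, 1 call was left, and without DKO 1, 8 members passed. The shares of all genes called in these fits are not given here, so the counts do not speak of the members alone. Myh11 differed by -1.99 ± 0.53 (adjusted p = 0.079) and Actg2 by -2.06 ± 0.60 (adjusted p = 0.105), larger differences with more spread. Against Ihh_KO, 0 members passed with limma, where 0.396% of genes did, and 11 members and 2151 genes had an unadjusted p under 0.05; the nearest were Acta2 at -0.89 ± 0.21 (adjusted p = 0.0613) and Tpm2 at -0.88 ± 0.21 (adjusted p = 0.0692). Without array 4, 0 members passed, Acta2 had a limma adjusted p of 0.0896 and 0.275% of genes passed. Without control 4 or DKO 1 there were 2 and 7 calls, again with no share of all genes given. Controls with numbers n and n plus 4 deviated together across genes (correlations of 0.538, 0.752, 0.695 and 0.771), which these tests do not use and the labels do not explain. The main fit counts such controls as independent, so its spread may rest on fewer independent samples than arrays. With such controls correlated in the fit, 10 members passed against Dhh_KO and 10 against Ihh_KO, all lower, where 5.43% and 5.63% of all genes passed. Ihh_KO set directly against Dhh_KO gave 0 called members and 0% of genes, with 2 members (Itga8 at -0.44 ± 0.15 and Synm at -0.20 ± 0.10) and 1440 genes at an unadjusted p under 0.05. Without array 4 it again gave 0 members, with 0.21% of genes called. Outside the module, Ryr2, the calcium release channel of the reticulum, was then called lower in Ihh_KO than in Dhh_KO (-1.59 ± 0.28, adjusted p = 0.0278), at 95.7, 61.6 and 33.4 on Ihh_KO 1 to 3 and 246, 141, 178 and 213 on Dhh_KO 1 to 4. Dhh_KO and Ihh_KO share controls 5 to 8, so their differences from those controls are not independent.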

How the data were processed

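Ovary RNA was purified with PicoPure, amplified with WT-Ovation Pico, labelled with the Encore Biotin module and hybridized to 19 arrays, per the labels' protocols. The deposited values are linear intensities from MAS5, as the submitters' processing notes name it; its version is not given in the sources used here. On Control 1, trimming 2% of the deposited values at each end leaves a mean of 500.002, which matches the authors' scaling target for all arrays. The other arrays were not checked in this way. The annotation supplied with the values assigned 34945 of the 45101 probe sets to 1 gene and 932 to several; 64 are controls.

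Values were used as log2(signal + 7.02), the 10th percentile of all signals. Genes under the 40th percentile of mean log2 value (6.26) were left out, which left 12379. Differences were tested with limma 3.58.1 in R 4.3.3 (lmFit, then eBayes with a trend on intensity; two-sided) over all 19 arrays with 5 group means (controls 1 to 4, controls 5 to 8 and the 3 mutant groups), with Benjamini-Hochberg adjustment over all genes tested, a threshold of 0.05 and 6 comparisons. The code was tested on simulated data. Figures used Python 3.11.15, numpy 2.4.6, pandas 2.3.3 and matplotlib 3.10.9. Arrays give no read depth, so their number limits the precision.

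The members, lists, classes and tests were chosen with earlier results of these data known. All 34 members are accounted for; the rule for named genes gives, per array, those with the largest and smallest change in each class. The pathway list and marker lists were taken whole. In the pairing check, deviations of arrays with the same number in the labels were correlated over genes. Dhh_KO and DKO gave 0.204, 0.133 and 0.178, and controls and DKO gave 0.158, 0.274 and 0.0743. Controls and Dhh_KO gave 0.289, 0.0976, 0.430 and 0.216. Ihh_KO and DKO gave -0.032, 0.169 and -0.23, and controls and Ihh_KO gave 0.0865, 0.192, -0.247 and 0.0483. Dhh_KO and Ihh_KO gave -0.0739, 0.156, -0.298 and 0.0628. Controls n and n plus 4 gave 0.538, 0.752, 0.695 and 0.771, so the 8 controls deviate as 4 pairs across the sets. The labels do not say what a number marks. With the number as a random replicate block the counts of 12 members in DKO, and of 2 in the difference from Dhh_KO, were the same. That block does not join controls n and n plus 4, so it does not test their pairing. Its fitted correlation was 0.0112, which leaves the fit close to the main one. 35 alternatives were run, 19 of them leaving out 1 array.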

Additional observations from a re-analysis of the deposited data

Results flagged for a closer look

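In 10 of 136 groups of 4 arrays (the 34 members in both sets of controls, Dhh_KO and Ihh_KO), 1 array lay far from the other 3 by Dixon's test at the 95% level; chance alone passes that level in about 5% of groups.

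Ihh_KO 3 was the array in 4 of the 10 groups: Fhl1 at 2723 (the others 1681 to 1813), Vcl at 3848 (2599 to 2718), Mylk at 5956 (6605 to 6694) and Smtn at 223 (357 to 369.6). It was thus high in 2 members that many cell types make and low in 2 muscle-enriched members.

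Myh11 stood apart on Control 5 at 2052 (the others 3115 to 3258), and on Dhh_KO 3 at 3963 (2479 to 2707). Of the controls, Actn1 stood apart on Control 2 at 2417 (1695 to 1767), Smtn on Control 3 at 601 (473 to 479), Fhl2 on Control 6 at 585 (465 to 472) and Vcl on Control 8 at 2604 (2866 to 2915).

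The differences of Acta2 and Tpm2 from their controls were not the same in DKO and Dhh_KO: the log2 difference in DKO minus that in Dhh_KO was -1.07 for Acta2 and -1.06 for Tpm2 by limma, with adjusted p of 0.0276 and 0.0293 (n = 3 and 4 mutant arrays). All 3 DKO arrays lay below all their controls in both genes, and the Dhh_KO arrays overlapped theirs.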

How the results depend on the processing

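The number of members called in DKO was 12. It was 0 with only the arrays of the set, 2 with a replicate block within that set, and 6 to 16 when 1 array was left out (6 without DKO 3). The shares of all genes called in these fits are not given here. All 12 stayed below 0 in every alternative run in which they were tested. In the model with a replicate block and all 8 controls as 1 group, controls 5 to 8 hold numbers of their own, so the single knockouts are set against controls of the other set. It called 10 members in Dhh_KO (7 lower, 3 higher; 29.8% of all genes) and 9 in Ihh_KO (8 lower, 1 higher; 27% of all genes), and the sign turned for Cnn2 (-0.38), Flna (-0.27) and Actn1 (-0.63) in Dhh_KO and for Synm (0.77) in Ihh_KO. The Dhh_KO median was -0.22 with that block and -0.17 with all 8 controls as 1 group. With each array centred on its median, the Ihh_KO median was 0.033 (all genes 0.13) and that of Ihh_KO against Dhh_KO 0.0396 (all genes 0.13). The count for DKO minus the Dhh_KO effect, 2, became 0 with quantile normalization or the mean of probe sets, 14 with all 8 controls (26% of all genes called), 10 with matched controls correlated (5.43%), 17 with the replicate block (35%), 7 with DKO 2 alone (0.242%) and 0 to 8 leaving out 1 array. For DKO minus the Ihh_KO effect, 0 became 2 with median centring (0.25% of all genes), 9 with all 8 controls (20.7%), 10 with matched controls (5.63%), 13 with the replicate block (32.6%), 6 with DKO 2 alone (0.137%) and 0 to 7 leaving out 1 array. DKO 2 alone and the random block were chosen after seeing the data. An arm of 1 array, assumed to vary like the others, says nothing about stability. For the ranges from leaving out 1 array, the shares of all genes called are not given here. The share of members with a CArG box, 26.7%, was 36.7% with 1 mismatch allowed. The causes were not tested. Des, Kcnmb1, Lmod1, Cnn1, Synpo2, Pdlim3 and Ldb3 have arrays on both sides of the filter signal of 69.4. Of these Lmod1 is a called member, at 45.3 on DKO 2.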
